A study of Homo sapiens with 8 samples.

Results

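The genes described here are 54 genes of the lysosome and of autophagy, listed by symbol and matched to the Ensembl gene identifiers of the count files. They hold 7 lysosomal proteases, 5 glycosidases, 4 lipid hydrolases or thioesterases, 6 genes of the lysosomal membrane, cholesterol export and hydrolase activation, 14 genes of the vacuolar proton pump (V-ATPase), 2 MiT/TFE transcription factors and 16 genes of autophagosome formation and cargo capture. All 54 were found among the 58051 genes of the files, and 47 of them had a mean normalised count above 5 and were tested, as were 7550 genes in all.

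RNA was sequenced from 8 samples of MDA231 (MDA-MB-231), a human breast cancer line of mesenchymal type, in a study of complex II, the mitochondrial enzyme that oxidises succinate. The groups were 2 samples of parental, not modified cells, 3 of SDHBKO cells, and 3 of SDHBKOSDHAlow cells. SDHB is the iron-sulfur subunit of complex II and SDHA its catalytic subunit. SDHBKO cells were made with a TALEN nuclease against the first exon of SDHB and selected with hygromycin, and SDHBKOSDHAlow cells are SDHBKO cells that also carry a short hairpin RNA against SDHA and were selected with puromycin. All cells were untreated and grew in full medium. Both modified groups lack SDHB. The labels name no control hairpin in SDHBKO cells, so the knockdown of SDHA and the second transfection and selection cannot be told apart. Parental cells were not modified, so neither can the loss of SDHB and the first transfection and selection. The labels call the samples of a group biological replicates without saying whether they came from separate cultures or clones, so p-values measure the spread between these samples, which may be technical.

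Lysosomes break down proteins, glycans and lipids with hydrolases that work at acid pH, and the V-ATPase acidifies them by coupling ATP hydrolysis in its cytosolic V1 sector to proton transport through its membrane V0 sector. Autophagy delivers cytosol and organelles to them: the ULK1 complex and the BECN1 lipid kinase complex start a double membrane, a conjugation system attaches ATG8 proteins to it, and receptors such as SQSTM1 bring cargo. Many of these genes carry a short promoter motif (the CLEAR element) that the transcription factors TFEB and TFE3 bind when nutrients are short or lysosomes are stressed.

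Because that motif is the best known sequence the genes share, their promoters were searched for the letters TCACGTG on either strand (CACGTGA on the printed one), in the 300 bases from 250 before to 50 after each transcription start in RefSeq (GRCh38.p14). A promoter was found for 44 of the 54 genes, and 9 of these (20.45%) held the letters, against 4.49% of 27305 genes. The core CACGTG alone was in 8.77% of all genes and again in 20.45% of these members. Since the motif was picked as one known in such genes, a higher share was given in advance and is no test. Members without a promoter, LAMP2, PSAP, HEXA and ATP6V1B2 among them, could not be searched. The 9 holding the letters were LAMP1, ATP6V0B, ATP6V0D1, ATP6V1G1, ATG3, CTSD, CTSA, GAA and MCOLN1. The windows below are shown for the one of them whose RNA changed, ATP6V0B, and for 3 whose RNA did not pass the test, and capitals mark the match. They lie at chr1:43974892-43974918 and chr1:43974910-43974936 (ATP6V0B, plus strand), chr16:67481200-67481227 (ATP6V0D1, minus strand), chr13:113297200-113297227 (LAMP1, plus strand) and chr11:1763958-1763984 (CTSD, minus strand), and the matches start at -58, -40, -60, -29 and -47 from the start site. A match of letters is a description and not a proof of binding.

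ATP6V0B, first match: cggcgtggggTCACGTGgtaccggcgc
ATP6V0B, second match: taccggcgcaTCACGTGggcgagttag
ATP6V0D1: ccccttatggTCACGTGAggcgcttgcg
LAMP1, 1 of its 6 matches: acccgcgggaTCACGTGAcgcccgggcg
CTSD: cggccgcgccCACGTGAccggtccggg

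Reads assigned to genes ranged from 773042 to 1427141 over the 8 libraries, so that 3 counts of a gene were worth 2.102 to 3.881 CPM (counts per 1000000 reads on genes). The CPM of single genes and of sums below are instead per 1000000 reads on the tested genes, scaled by TMM. Reads come from the 3' ends of transcripts, and levels are compared between samples and not between genes. SDHBKOSDHAlow replicate 2 was the deepest library and stood apart, with a chi-square statistic per degree of freedom of 8.96 and 9.58 against the other two, which gave 2.99 between them. Multimapping reads, which are not assigned to genes, were 109766 of 1078845 and 108929 of 997225 in parental cells. They were a larger share in SDHBKO cells: 178030 of 1107941, 176406 of 1200403 and 187572 of 1298056. In SDHBKOSDHAlow cells they were 132545 of 1079322, 170848 of 1757900 and 127957 of 1134214. The reason was not tested. Of the mesenchymal markers VIM, CD44, AXL, CAV1 and LGALS1, all 5 were tested and none was called in any comparison. Of the luminal markers ERBB2 and GATA3 were tested and not called, with 8 to 25 counts per library, CDH1 had 0 to 2 and ESR1 and PGR had 0 in all 8. Of the fibroblast markers COL1A1 had 0 to 4 counts and COL1A2, COL3A1, DCN and LUM 0, and of the leukocyte markers CD68 had 0 to 6 and PTPRC, CD3E and CSF1R 0 in all 8. SDHA, the target of the hairpin, was at 74.0 and 91.6 CPM in parental cells, 148, 135 and 151 in SDHBKO cells and 8.45, 12.7 and 17.8 in SDHBKOSDHAlow cells. It fell from SDHBKO to SDHBKOSDHAlow cells by 3.46 on the log2 scale (SE 0.28, edgeR adjusted p = 1.16e-07). SDHB had at most 4 counts in any library, and reads from its 3' end say nothing about a lesion in its first exon.

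The first comparison asked which of these genes differ between SDHBKO and parental cells. In SDHBKO cells 4 members fell and 1 rose against parental cells at an edgeR adjusted p under 0.1. LAMP2, PSAP and HEXA, which encode a lysosomal membrane protein, a precursor of hydrolase activators and a glycosidase, fell to between 0.285 and 0.481 of their parental level. Of the V-ATPase, the V0 gene ATP6V0B fell to 0.508 and the V1 gene ATP6V1B2 rose to 2.27 times the parental level. The remaining 42 tested members were not called, among them the receptor gene SQSTM1, MAP1LC3B and LAMP1.

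The 5 called members are 10.6% of the 47 tested, beside 5.54% of all genes tested. In direction, 1 rose against 3.14% of all genes and 4 fell against 2.4%. This balance depended on the tool: DESeq2, which gave an adjusted p to 22 members, called 2 higher (ATP6V1B2 and GLB1) and 1 lower (ATP6V0B). LAMP2 and HEXA, called lower by edgeR, had no adjusted p there. Over all genes, DESeq2 gave an adjusted p to 3168 and called 394 of them. At an unadjusted p under 0.05 there were 4 members above and 8 below parental cells, where 17.5% of all genes passed in either direction. The groups did not overlap for 8 members with higher and 13 with lower values in SDHBKO cells, beside 19.3% and 18.6% of all genes. Of the members 19 had a log2 fold change above 0, beside 49.9% of all genes. The number of calls depended on single libraries. It was 2 (LAMP2 and ATP6V0B) without SDHBKO replicate 1 and 3 without SDHBKO replicate 3. Without SDHBKOSDHAlow replicate 2, which enters the estimate of spread, it was 8. Calls over all genes shifted too, from 418 of 7550 to 77, 148 and 833 in the same fits. Without parental replicate 1 or 2, which leaves 1 parental sample, the members' median log2 fold change was -0.115 and -0.0444. The median log2 fold change of the members was -0.05, beside -0.00072 for all genes, and members ran from -1.81 to 1.37. In a bulk sample, fewer cells expressing a gene and less RNA per cell cannot be told apart.

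**Figure D1:**
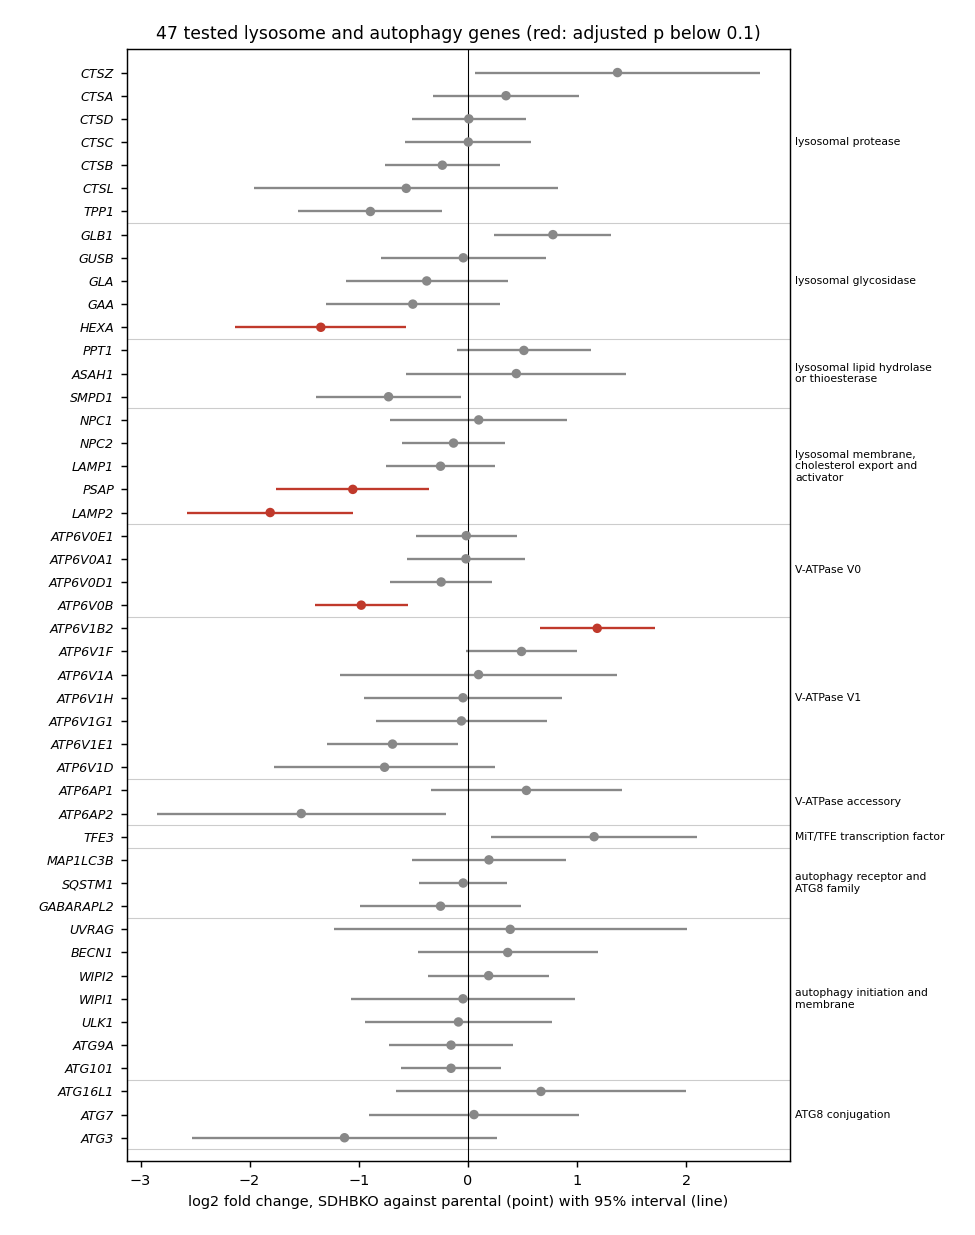
Log2 fold change between SDHBKO and parental cells for the 47 tested genes, grouped by role (vertical axis: gene; point: fitted value; line: 95% interval; red: edgeR adjusted p below 0.1). Most intervals cross 0, and the 5 red genes lie at -1.81 (LAMP2), -1.35 (HEXA), -1.05 (PSAP), -0.98 (ATP6V0B) and 1.18 (ATP6V1B2).

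LAMP2 (ENSG00000005893, chrX:120426148-120469365) encodes one of the major glycoproteins of the lysosomal membrane, needed for chaperone-mediated autophagy and for the fusion of autophagosomes with lysosomes. It was at 78.7 and 63.7 CPM in parental cells, at 15.1, 31.1 and 14.0 in SDHBKO cells, and at 27.8, 35.1 and 46.8 in SDHBKOSDHAlow cells. Every SDHBKO sample was below both parental samples, and so was every SDHBKOSDHAlow sample, of which replicate 1 lay within the SDHBKO range. LAMP2 fell with a log2 fold change of -1.81 (SE 0.37, edgeR adjusted p = 0.0124). Between SDHBKOSDHAlow and SDHBKO cells it was 0.85 (SE 0.35), with an unadjusted p of 0.0237 and an edgeR adjusted p of 0.32, and LAMP2 was the only member with an unadjusted p under 0.05 there.

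LAMP1, the paralog that shares the lysosomal membrane with LAMP2, was at 141 and 139 CPM in parental cells, at 97.2, 140.1 and 116 in SDHBKO cells and at 127, 106 and 98.1 in SDHBKOSDHAlow cells. SDHBKO replicate 2 lay between the parental samples and all other modified samples below them. Its log2 fold change between SDHBKO and parental cells, -0.25 (SE 0.24), did not pass the test (edgeR adjusted p = 0.64), and its 95% interval ran from -0.75 to 0.25, above that of LAMP2, which ran from -2.57 to -1.05. The difference between the paralogs was not itself tested. NPC1 and NPC2, which export cholesterol from the lysosome, had log2 fold changes of 0.10 and -0.13 and overlapped between SDHBKO and parental cells.

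PSAP (ENSG00000197746, chr10:71816298-71851251) encodes prosaposin, which is cut into the saposins that present sphingolipids to their hydrolases. Its values were 614 and 532 CPM in parental cells, 137, 381 and 307 in SDHBKO cells and 241, 266 and 572 in SDHBKOSDHAlow cells. All SDHBKO samples were below the parental ones, replicate 1 far below the other two, whereas SDHBKOSDHAlow replicate 3 reached the parental range. PSAP fell with a log2 fold change of -1.05 (SE 0.34, edgeR adjusted p = 0.0964), which without SDHBKO replicate 1 was -0.74 and no longer called. DESeq2 did not call PSAP either (DESeq2 adjusted p = 0.256).

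HEXA (ENSG00000213614, chr15:72340924-72376420), the alpha subunit of the hexosaminidase that degrades ganglioside GM2, was at 57.9 and 58.4 CPM in parental cells. It was at 12.3, 33.4 and 21.6 in SDHBKO cells and at 24.1, 17.2 and 25.6 in SDHBKOSDHAlow cells. All 6 modified samples lay below both parental samples, and the modified groups overlapped. HEXA had a log2 fold change of -1.35 (SE 0.38, edgeR adjusted p = 0.0596) in SDHBKO cells and -1.40 (SE 0.37, edgeR adjusted p = 0.106) in SDHBKOSDHAlow cells, each against the same parental samples. Between the modified groups it was -0.05, with a 95% interval from -0.81 to 0.71.

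Of the 5 glycosidases HEXA was the only one called, beside 5.54% of all genes between SDHBKO and parental cells. GLB1, the lysosomal beta-galactosidase, was at 59.0 and 58.4 CPM in parental cells, at 112, 106 and 85.2 in SDHBKO cells and at 119.5, 108 and 100.3 in SDHBKOSDHAlow cells. All 6 modified samples lay above both parental samples, the opposite of HEXA. The log2 fold change of GLB1 was 0.78 (SE 0.26) in SDHBKO cells and 0.89 (SE 0.26) in SDHBKOSDHAlow cells, with edgeR adjusted p of 0.106 and 0.142, so it was not called. GAA, GLA and GUSB, which degrade glycogen, globotriaosylceramide and glucuronides, had log2 fold changes of -0.51, -0.38 and -0.04 in SDHBKO cells.

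None of the 7 proteases was called, beside 5.54% of all genes between SDHBKO and parental cells. CTSD, the aspartic protease of the lysosome and the member of this group with the most reads, was at 442 and 507 CPM in parental cells, 416, 588 and 426 in SDHBKO cells and 437, 239 and 450.2 in SDHBKOSDHAlow cells. SDHBKO cells spanned the parental values, and SDHBKOSDHAlow replicate 2 was lowest of all 8. The log2 fold change of CTSD between SDHBKO and parental cells was 0.01 (SE 0.25), with a 95% interval from -0.52 to 0.53.

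TPP1, a tripeptidyl peptidase, was at 56.7 and 57.1 CPM in parental cells and at 31.5, 32.2 and 28.1 in SDHBKO cells, and at 53.1, 32.8 and 45.7 in SDHBKOSDHAlow cells. The 3 SDHBKO samples were close together and below every other sample, but the log2 fold change of -0.89 (SE 0.32) had an edgeR adjusted p of 0.132. CTSZ, a carboxypeptidase, had the highest log2 fold change of the list, 1.37 (SE 0.63, edgeR adjusted p = 0.26). It rested on low levels, 16.2 and 3.98 CPM in parental cells against 27.4, 22.2 and 31.3 in SDHBKO cells. CTSZ then spread from 7.80 to 42.5 CPM within SDHBKOSDHAlow cells. CTSA, CTSB, CTSC and CTSL, a serine carboxypeptidase and 3 cysteine proteases, had log2 fold changes between -0.57 and 0.35 in SDHBKO cells, none called.

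The 3 tested lipid hydrolases and thioesterases held no called member, beside 5.54% of all genes between SDHBKO and parental cells. SMPD1, the acid sphingomyelinase, was at 47.4 and 55.8 CPM in parental cells, 24.6, 36.7 and 31.3 in SDHBKO cells and 32.6, 36.6 and 32.3 in SDHBKOSDHAlow cells, below the parental samples in all 6. Its log2 fold change in SDHBKO cells, -0.73 (SE 0.32), had an edgeR adjusted p of 0.239. PPT1, a palmitoyl-protein thioesterase, was at 47.4 and 38.5 CPM in parental cells, 73.9, 47.8 and 63.7 in SDHBKO cells and 72.4, 76.8 and 70.2 in SDHBKOSDHAlow cells, above the parental samples in all 6. Its log2 fold change was 0.51 in SDHBKO cells and 0.76 (SE 0.29) in SDHBKOSDHAlow cells, with edgeR adjusted p of 0.38 and 0.27. ASAH1, the acid ceramidase, had few reads, from 10.6 to 21.7 CPM, and a log2 fold change of 0.44 (SE 0.48) in SDHBKO cells.

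**Figure D2:**
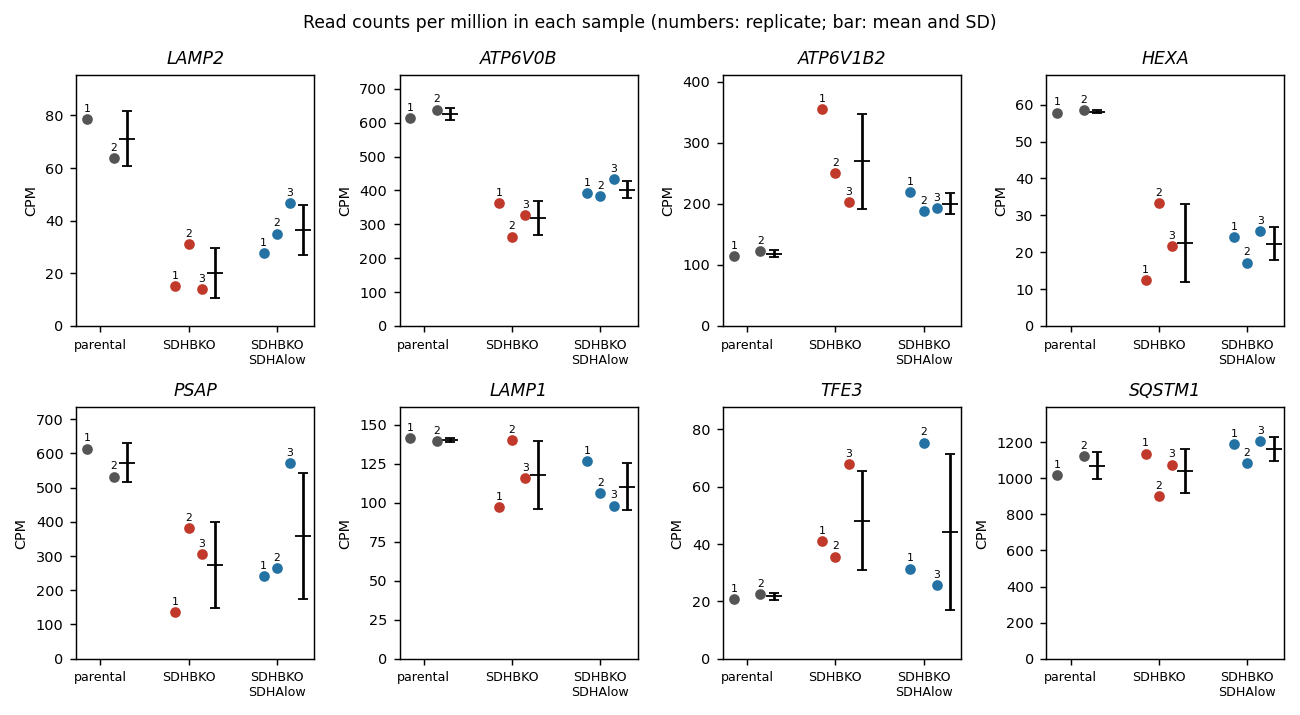
CPM in each sample (vertical axis, linear from 0) for the 5 called members and for LAMP1, TFE3 and SQSTM1, in parental, SDHBKO and SDHBKOSDHAlow cells (points: samples with replicate numbers; bars: mean and SD). LAMP2, ATP6V0B, HEXA and PSAP are lower and ATP6V1B2 is higher in all 3 SDHBKO samples than in both parental samples, and SQSTM1 stays between 902 and 1208 CPM.

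Of the V-ATPase genes, ATP6V0B (ENSG00000117410, chr1:43974487-43978295), a proteolipid of the proton-carrying ring of V0 and the holder of the promoter matches printed above, was at 613 and 639 CPM in parental cells. It was at 363, 264 and 328 in SDHBKO cells and at 391, 384 and 432 in SDHBKOSDHAlow cells. The 3 groups did not overlap, with parental cells highest and SDHBKO cells lowest. ATP6V0B had a log2 fold change of -0.98 (SE 0.20, edgeR adjusted p = 0.0143) between SDHBKO and parental cells, and of 0.34 (SE 0.19, edgeR adjusted p = 0.48) between SDHBKOSDHAlow and SDHBKO cells. ATP6V0C, which encodes the other main ring proteolipid, is listed at 0 in all 8 libraries. The last 300 bases of its transcript lie entirely within another gene on the same strand, ENSG00000260272, which is itself listed at 0. Reads that fall in both genes may be counted for neither, so the 0 sets no bound on the level of ATP6V0C. The part of that overlap in the 0 was not tested.

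The other V0 genes did not pass the test. ATP6V0D1, which joins the ring to the central stalk, was at 201 and 197 CPM in parental cells, 190.2, 141 and 173 in SDHBKO cells and 117, 139 and 119 in SDHBKOSDHAlow cells. Here the groups were ordered otherwise than for ATP6V0B: none overlapped and SDHBKOSDHAlow cells were lowest. The log2 fold change of ATP6V0D1 was -0.25 in SDHBKO cells, -0.42 (SE 0.20) between the modified groups and -0.67 (SE 0.22) between SDHBKOSDHAlow and parental cells, with edgeR adjusted p of 0.62, 0.42 and 0.20. ATP6V0A1 and ATP6V0E1 both had a log2 fold change of -0.02 in SDHBKO cells and overlapped between all groups.

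ATP6V1B2 (ENSG00000147416, chr8:20197381-20226819), the ubiquitous B subunit of the ATP-hydrolysing head of V1, was at 115 and 122 CPM in parental cells. It was at 356, 250.1 and 203 in SDHBKO cells and at 219.6, 189 and 193 in SDHBKOSDHAlow cells. All 6 modified samples lay above both parental samples. ATP6V1B2 had a log2 fold change of 1.18 (SE 0.25, edgeR adjusted p = 0.0159) in SDHBKO cells and 0.76 (SE 0.25, edgeR adjusted p = 0.20) in SDHBKOSDHAlow cells, and without SDHBKO replicate 1 the former was 0.94 and not called.

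Its partner in the head, ATP6V1A, had few reads, from 5.97 to 19.2 CPM over the 8 samples, and a log2 fold change of 0.10 (SE 0.61), and its 95% interval, from -1.17 to 1.37, held the size of the change of ATP6V1B2. ATP6V1F, a subunit of the central stalk, was at 205 and 255 CPM in parental cells and at 312, 277 and 379 in SDHBKO cells (log2 fold change 0.49, edgeR adjusted p = 0.31). ATP6V1E1, a peripheral stalk subunit, was at 104 and 77.0 in parental cells and at 68.4, 63.4 and 37.8 in SDHBKO cells (log2 fold change -0.69, edgeR adjusted p = 0.205). ATP6V1D, ATP6V1G1 and ATP6V1H, further stalk and regulatory subunits, had log2 fold changes of -0.76, -0.06 and -0.05.

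The sectors can also be summed. Members of V0 together made up 1170 and 1180 CPM in parental cells, 959, 724 and 816 in SDHBKO cells and 916, 908 and 875 in SDHBKOSDHAlow cells. V1 members made up 503 and 539 CPM in parental cells, 800.4, 665 and 699 in SDHBKO cells and 631, 692 and 564 in SDHBKOSDHAlow cells. In these sums the V0 samples of both modified groups lie below and the V1 samples above the parental ones. Each sum contains its called gene, ATP6V0B or ATP6V1B2, and was not tested. Apart from these genes, log2 fold changes in SDHBKO cells ran from -0.25 to -0.02 in V0 and from -0.76 to 0.49 in V1.

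The accessory subunits, which assist assembly of the pump, varied between replicates. ATP6AP1 was at 184 and 175 CPM in parental cells, 293, 317 and 173 in SDHBKO cells and 296, 59.7 and 315 in SDHBKOSDHAlow cells. SDHBKOSDHAlow replicate 2 held the lowest value of all and its 2 fellow samples were among the 4 highest. ATP6AP2 was at 16.2 and 19.9 CPM in parental cells and at 1.37, 8.89 and 7.55 in SDHBKO cells (log2 fold change -1.53, SE 0.64, edgeR adjusted p = 0.205), and at 7.24, 23.1 and 8.91 in SDHBKOSDHAlow cells, where again replicate 2 stood away from the others.

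**Figure D3:**
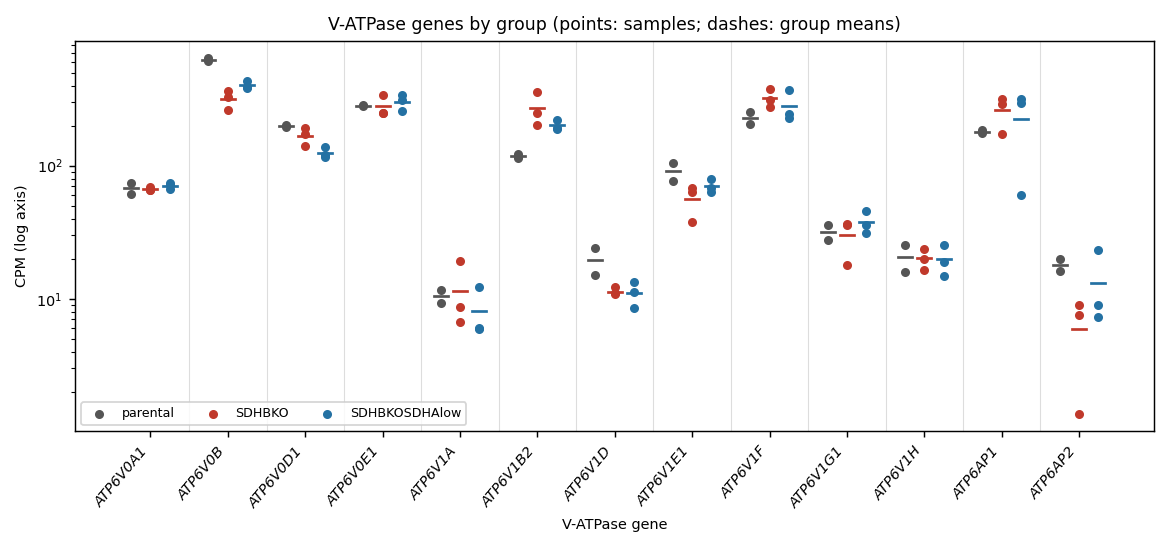
CPM (log axis) of the 13 tested V-ATPase genes in every sample, coloured by group (points: samples; dashes: group means). ATP6V0B is lower and ATP6V1B2 higher in SDHBKO than in parental cells, and ATP6AP1 ranges from 59.7 to 315 CPM within SDHBKOSDHAlow cells.

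TFEB had between 0 and 5 counts per library and was not tested. TFE3, the related transcription factor, was at 20.8 and 22.6 CPM in parental cells, at 41.0, 35.6 and 68.0 in SDHBKO cells and at 31.4, 75.4 and 25.6 in SDHBKOSDHAlow cells. All 6 modified samples lay above both parental samples, with a wide spread inside each modified group. TFE3 had a log2 fold change of 1.16 (SE 0.45) in SDHBKO cells and of 1.06 (SE 0.45) in SDHBKOSDHAlow cells, with edgeR adjusted p of 0.18 and 0.33, so neither was called. These factors act on the genes when they enter the nucleus, which RNA does not measure.

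Of the 9 motif holders, 8 were tested, and their log2 fold changes in SDHBKO cells ran from -1.13 (ATG3) to 0.35 (CTSA). ATP6V0B alone was called, beside 5.54% of all genes. The other called members, LAMP2, PSAP, HEXA and ATP6V1B2, had no promoter to search. LAMP1, CTSD, ATP6V0D1, ATP6V1G1 and GAA stood at -0.25, 0.01, -0.25, -0.06 and -0.51.

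No autophagy gene of the list was called in SDHBKO cells, beside 5.54% of all genes. Those tested were 3 of the receptor and ATG8 family, 7 of initiation and membrane and 3 of conjugation. At that share a group this small may hold no call. SQSTM1, the receptor p62 that binds ubiquitinated cargo and ATG8 proteins, was at 1016 and 1124 CPM in parental cells, 1137, 902 and 1076 in SDHBKO cells and 1191, 1086 and 1208 in SDHBKOSDHAlow cells. The 3 groups overlapped. Its log2 fold change of -0.04 (SE 0.20) had a 95% interval from -0.45 to 0.36, so a change of 1 log2 unit lay outside it. Its 3' end overlaps MRNIP on the opposite strand, and whether counting used the strand is not given in the sources used here.

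MAP1LC3B, the ATG8 protein used as a marker of autophagosomes, was at 40.5 and 31.9 CPM in parental cells, 32.8, 47.8 and 43.2 in SDHBKO cells and 48.3, 48.5 and 31.2 in SDHBKOSDHAlow cells, and the groups overlapped (log2 fold change 0.19, SE 0.34, edgeR adjusted p = 0.83). Reads that it shares with its near-identical copy MAP1LC3B2 may be missing from its counts. GABARAPL2, another ATG8 protein, was at 47.4 and 42.5 CPM in parental cells, 23.3, 55.6 and 33.5 in SDHBKO cells and 67.6, 63.4 and 43.5 in SDHBKOSDHAlow cells. Its log2 fold changes were -0.25 in SDHBKO cells and 0.62 (SE 0.31, edgeR adjusted p = 0.42) between the modified groups.

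None of the 7 initiation and membrane genes was called, beside 5.54% of all genes between SDHBKO and parental cells. ATG101, a scaffold of the ULK1 complex, was at 256 and 276 CPM in parental cells, 229, 247 and 241 in SDHBKO cells and 170.2, 255 and 194 in SDHBKOSDHAlow cells, all 6 modified samples below both parental ones by a small margin (log2 fold change -0.15, edgeR adjusted p = 0.78, in SDHBKO cells). ULK1, the kinase itself, ATG9A, a membrane scramblase, and BECN1 had log2 fold changes of -0.09, -0.15 and 0.36, and UVRAG, WIPI1 and WIPI2, which act on the lipid phosphatidylinositol 3-phosphate or its kinase, of 0.39, -0.05 and 0.19.

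In the conjugation system, ATG7, which activates ATG8 proteins, had a log2 fold change of 0.06 (SE 0.46) and groups that overlapped. ATG3, which transfers them to lipid, was at 17.4 and 13.3 CPM in parental cells and 2.74, 12.2 and 5.40 in SDHBKO cells (log2 fold change -1.13, SE 0.67, edgeR adjusted p = 0.40). ATG16L1, which places the conjugation on the membrane, was at 8.10 and 3.98 CPM in parental cells, 10.9, 13.3 and 5.40 in SDHBKO cells and 15.7, 11.2 and 16.7 in SDHBKOSDHAlow cells. Its log2 fold change between SDHBKOSDHAlow and parental cells, 1.21 (SE 0.61), was the highest of the list there and had an edgeR adjusted p of 0.43.

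The second comparison asked which of these genes differ between the modified groups, which both lack SDHB. Between SDHBKOSDHAlow and SDHBKO cells no member was called by edgeR or by DESeq2, and 1 (LAMP2, higher) had an unadjusted p under 0.05, beside 1.51% of all genes called (0.318% higher and 1.19% lower) and 12.1% under an unadjusted p of 0.05. Of the members 30 had a log2 fold change above 0, beside 51.1% of all genes. Their median was 0.11, beside 0.01 for all genes, with members from -0.49 (ATP6V1A) to 1.14 (ATP6AP2, SE 0.58, edgeR adjusted p = 0.44). The groups did not overlap for 2 members that were higher in SDHBKOSDHAlow cells, ATP6V0B and TPP1, and for 1 that was lower, ATP6V0D1, beside 8.7% and 8.69% of all genes. A missed call does not show that a gene stayed the same: the 95% interval lay within 1 log2 unit of 0 for 29 of the 47 members. Without SDHBKOSDHAlow replicate 2, too, no member was called.

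The third comparison set SDHBKOSDHAlow against parental cells. No member was called by edgeR or by DESeq2, nor by edgeR without SDHBKOSDHAlow replicate 2, beside 0.914% of all genes (0.225% higher and 0.689% lower). At an unadjusted p under 0.05 there were 4 members higher (GLB1, ATP6V1B2, PPT1 and TFE3) and 4 lower (HEXA, ATP6V0B, ATP6V0D1 and LAMP2), where 12.3% of all genes passed. The log2 fold change was above 0 for 26 members, beside 51.4% of all genes, and its median was 0.09, beside 0.02 for all genes, with a range from -1.40 (HEXA) to 1.21 (ATG16L1). For 8 members the SDHBKOSDHAlow samples were all above and for 11 all below the parental ones, beside 15.2% and 15.5% of all genes.

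The called genes of SDHBKO cells may be set side by side with the values of SDHBKOSDHAlow cells, which share the parental samples. Against parental cells, the log2 fold change of LAMP2 was -1.81 in SDHBKO and -0.96 in SDHBKOSDHAlow cells, that of ATP6V0B -0.98 and -0.64, that of PSAP -1.05 and -0.68 and that of ATP6V1B2 1.18 and 0.76. For HEXA it was -1.35 and -1.40. The 5 genes were picked by their values in SDHBKO cells, so this listing favours smaller values in SDHBKOSDHAlow cells. The test of each difference is the comparison of the modified groups, and none of the 5 passed it, with edgeR adjusted p from 0.32 (LAMP2) to 0.97 (HEXA).

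**Figure D4:**
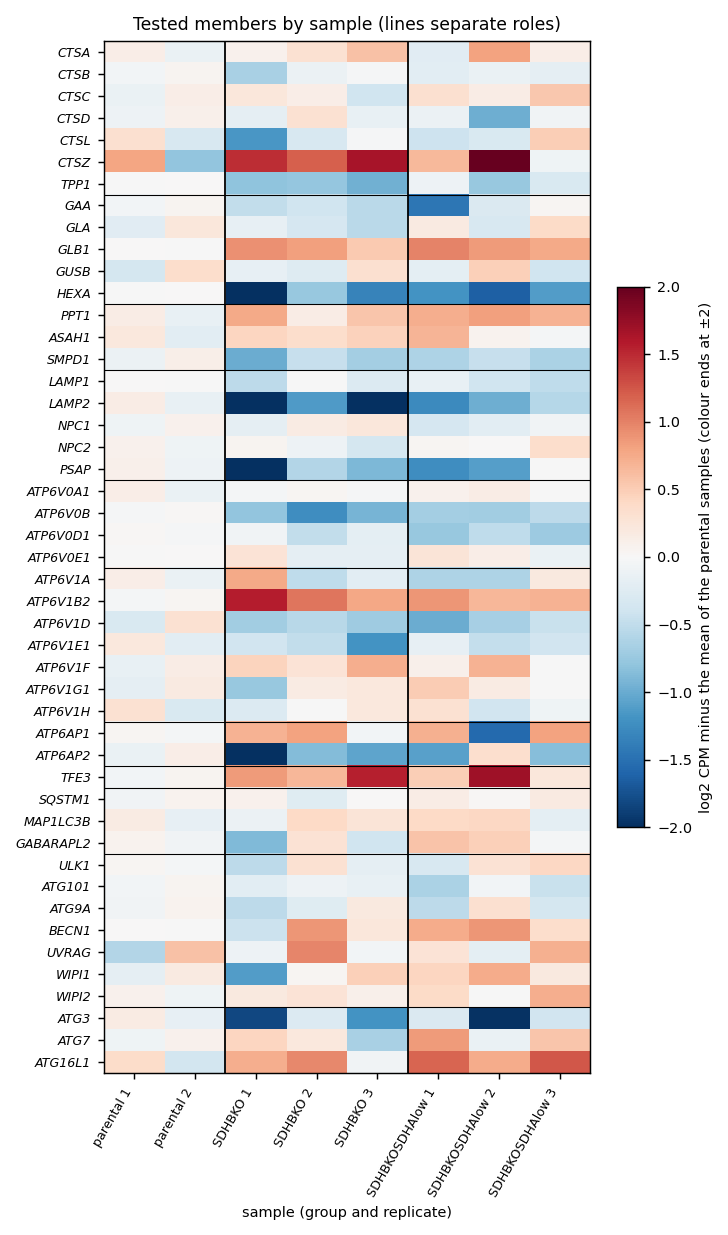
Log2 CPM of the 47 tested members in each of the 8 samples (columns) minus the mean of the parental samples, grouped by role (rows: genes; blue: lower; red: higher; colour ends at 2 and -2). HEXA, LAMP2 and ATP6V0B are blue and ATP6V1B2, GLB1 and TFE3 red in all 6 modified samples, while CTSZ and ATP6AP1 differ between replicates of SDHBKOSDHAlow cells.

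Samples also differed inside their group. Of the SDHBKO samples, replicate 1 held the lowest value in 22 of the 47 members (46.8%, beside 36% of all genes tested), among them PSAP, HEXA, LAMP1, ATP6AP2, ATG3 and WIPI1. The summed reads of all 54 members were 0.592% and 0.574% of the reads on genes in parental cells, 0.489%, 0.557% and 0.501% in SDHBKO cells and 0.553%, 0.49% and 0.595% in SDHBKOSDHAlow cells. In this sum every SDHBKO sample lay below both parental samples by a small margin, and the SDHBKOSDHAlow samples spanned both groups. The sum contains all called members, of which ATP6V0B and PSAP have the most reads, and was not tested. The lysosomal membrane and activator genes summed to 1053 and 937 CPM in parental cells to 462.5, 751.5 and 607.5 CPM in SDHBKO cells and to 608, 618.5 and 973 CPM in SDHBKOSDHAlow cells, of which replicate 3 lay within the parental range. This sum contains the called genes PSAP and LAMP2 and was not tested.

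The 7 members that were not tested had few reads. LIPA, the acid lipase, had 2 to 5 counts per library, MCOLN1, a calcium channel of the lysosome, 1 to 10, GABARAP 0 to 2, GABARAPL1 0 to 12 and ATG5, part of the conjugating complex with ATG16L1, 0 to 3. TFEB and ATP6V0C are given above. The counts of all 7 were too low for a comparison. For MCOLN1, 55% of the last 300 bases overlap counted genes on the same strand, among them PNPLA6. For MCOLN1 and ATP6V0C low counts therefore need not mean low levels. The 3' ends of 4 members (ATG9A, NPC2, MCOLN1 and ATP6V0C) overlap a gene on the same strand. Those of 7 (SQSTM1, CTSA, NPC1, ATG101, BECN1, WIPI1 and ATG7) overlap a gene on the opposite strand. None of the 5 called members is among these. The whole 3' end of ATG9A lies within ENSG00000284820, which was not among the genes counted, so its counts may hold reads of both genes.

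Other genes of the same pathways were taken from lists that go beyond the 54. Of 29 further lysosomal hydrolases 17 were tested, and 1 (5.88%, beside 5.54% of all genes) fell in SDHBKO cells: SGSH, the heparan sulfatase, was at 75.2 and 50.4 CPM in parental cells and at 17.8, 27.8 and 31.3 in SDHBKO cells (log2 fold change -1.28, edgeR adjusted p = 0.0703). The peptidase DPP7 was the 1 of the 17 called between SDHBKOSDHAlow and parental cells (beside 0.914% of all genes), with 125 and 151 CPM in parental cells, 98.5, 96.7 and 77.7 in SDHBKO cells and 57.9, 71.6 and 65.7 in SDHBKOSDHAlow cells, none overlapping (log2 fold change -1.08, edgeR adjusted p = 0.0696). Over the 17 tested hydrolases the median log2 fold change was -0.16 and -0.06 in SDHBKO and SDHBKOSDHAlow cells against parental cells. None of 20 tested genes of lysosomal membrane transport and sorting (of 26 listed) was called in any comparison, beside 5.54%, 1.51% and 0.914% of all genes in the 3 comparisons.

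Of 13 further V-ATPase genes 6 were tested and 1 was called, beside 5.54% of all genes: ATP6V0E2, an isoform of the small V0 subunit, which rose in SDHBKO cells (99.5 and 146 CPM in parental cells against 275, 198 and 186, log2 fold change 0.84, edgeR adjusted p = 0.0968). Most of its 3' end overlaps an antisense gene, ATP6V0E2-AS1. Its isoform among the members, ATP6V0E1, had a log2 fold change of -0.02.

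Of 42 further autophagy genes 25 were tested, and 2 (8%, beside 5.54% of all genes) were called between SDHBKO and parental cells. ATG4D, a protease that processes and removes ATG8 proteins, fell in both modified groups: it was at 231 and 248 CPM in parental cells, 56.1, 80.0 and 80.9 in SDHBKO cells and 66.4, 167 and 69.1 in SDHBKOSDHAlow cells. All 6 modified samples were below the parental ones, and SDHBKOSDHAlow replicate 2 was nearest to them. ATG4D had log2 fold changes of -1.72 (SE 0.32, edgeR adjusted p = 0.0082) and -1.22 (edgeR adjusted p = 0.0922). The whole 3' end of ATG4D overlaps KRI1 on the opposite strand. VAMP8, a SNARE protein for the fusion of autophagosomes with lysosomes, rose in SDHBKO cells and fell from there in SDHBKOSDHAlow cells. It was at 89.1 and 73.0 CPM in parental cells, 229, 153 and 178 in SDHBKO cells and 129, 91.8 and 94.7 in SDHBKOSDHAlow cells. Its log2 fold change was 1.20 (SE 0.26, edgeR adjusted p = 0.0202) between SDHBKO and parental cells and -0.83 (edgeR adjusted p = 0.0918) between the modified groups.

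Of 29 genes of nutrient sensing at the lysosome 19 were tested, and 1 (5.26%, beside 5.54% of all genes between SDHBKO and parental cells and 1.51% between the modified groups) was called, PRKAG1, a regulatory subunit of the energy sensor AMPK. It was at 40.5 and 38.5 CPM in parental cells, 196, 118 and 113 in SDHBKO cells and 88.1, 56.7 and 46.8 in SDHBKOSDHAlow cells. SDHBKO samples were above all others and SDHBKOSDHAlow samples above the parental ones. PRKAG1 rose by a log2 fold change of 1.84 (SE 0.33, edgeR adjusted p = 0.0082) in SDHBKO cells and had one of -1.16 (SE 0.27, edgeR adjusted p = 0.0389) from SDHBKO to SDHBKOSDHAlow cells. Its 3' end lies within a second gene on the same strand, ENSG00000288710, which was not among the genes counted. The counts of PRKAG1 may therefore hold reads of both genes. Over the 13 or 14 alternative settings and left-out samples that gave a value, the calls between SDHBKO and parental cells were kept in 13 of 14 for ATG4D, 12 of 14 for PRKAG1, 11 of 14 for VAMP8, 8 of 13 for SGSH and 7 of 14 for ATP6V0E2. The calls in SDHBKOSDHAlow cells were kept in 12 of 14 for PRKAG1 and 7 of 14 for VAMP8 against SDHBKO cells, and in 9 of 14 for DPP7 and 5 of 14 for ATG4D against parental cells.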

How the data were processed

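The authors trimmed reads (Trimmomatic), took out those of rRNA and mitochondrial RNA (Sortmerna), and aligned and counted the rest per gene on GRCh38 with STAR 2.5.2b; the counts they deposited, as raw reads per gene, were used here. The authors also deposited normalized counts, a signal equal to counts divided by a DESeq2 size factor, in which the numbers 1 and 3 of SDHBKO replicates are swapped against the raw files; these served for checks only.

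Genes with a base mean above 5 were kept. Counts were scaled by TMM and tested with edgeR 4.0.16 (quasi-likelihood test, R 4.3.3), all 8 samples in 1 fit of 3 groups. P-values were adjusted by Benjamini-Hochberg over the 7550 genes tested, and genes under 0.1 were called. The common biological coefficient of variation was 21.5%, and intervals of 95% come from the same fit. The 54 members and all other lists were chosen with earlier results of these data known. Named genes were all called genes of the lists, the 3 highest and 3 lowest members per comparison, the member with the most counts per role, TFEB, TFE3, SQSTM1, MAP1LC3B and LAMP1, and SDHA and SDHB; others were named to complete a role or a count, after their values were seen. Positions and 3' overlaps come from GENCODE on GRCh38, promoters from RefSeq (GRCh38.p14). The other hydrolase list had 1 further symbol, which is not reported here. The fit was tested on simulated data. Alternatives were DESeq2 1.42.0, its size factors, other filters, an adjusted p of 0.05, fits of the compared groups only, the replicate block and each sample left out.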

Additional observations from a re-analysis of the deposited data

How the results depend on the processing

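Between SDHBKO and parental cells 5 members were called. DESeq2 called 3 (ATP6V0B, ATP6V1B2 and GLB1) of the 22 to which it gave an adjusted p, beside 394 of 3168 over all genes. LAMP2 and HEXA had no adjusted p there, and PSAP was lost (DESeq2 adjusted p = 0.256). In edgeR, a fit of the 2 groups only called 8, and an adjusted p of 0.05 left 3. Leaving out 1 sample gave 0 (without parental replicate 1) to 8 members (without SDHBKOSDHAlow replicate 2), with 1 without parental replicate 2, 2 without SDHBKO replicate 1 and 3 without SDHBKO replicate 3. LAMP2 was lost only without parental replicate 1 and ATP6V0B without either parental sample. ATP6V1B2 was lost also without SDHBKO replicate 1, and HEXA and PSAP without either parental sample or SDHBKO replicate 1 or 3. All 5 kept their sign under every alternative that gave them a value. The fold of LAMP2 against parental cells lay between -2.29 and -1.59 on the log2 scale and that of ATP6V0B between -1.08 and -0.86. TFE3 was called without a filter on low counts, GLB1 by DESeq2, and both with TPP1 in the fit of 2 groups and without SDHBKOSDHAlow replicate 2.

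Over all genes, the 418 calls became 773 with 2 groups, 171 at 0.05 and 0 to 833 with 1 sample left out, and DESeq2 split them 263 higher to 131 lower, beside 237 to 181. Between SDHBKOSDHAlow and SDHBKO cells no alternative called a member, and the 114 calls over all genes became 64 with 2 groups, 64 at 0.05 and 39 to 362 with 1 sample left out. Against parental cells, SDHBKOSDHAlow cells gave 1 called member, HEXA, without a filter and 0 to 1 with 1 sample left out (PSAP, without SDHBKOSDHAlow replicate 3). The 69 calls over all genes became 152 without a filter, 7 with 2 groups, 13 at 0.05 and 4 to 172 with 1 sample left out, and DESeq2 split them 36 higher to 43 lower, beside 17 to 52. The median log2 fold change of the members ranged from -0.115 to -0.018, from 0.0521 to 0.151 and from -0.0339 to 0.0885 in the 3 comparisons with 1 sample left out. The cause of these shifts was not tested.

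Replicate numbers did not pair the samples: same-numbered samples had a mean correlation of deviations of -0.07 (from -0.27 to 0.09, 7 pairs). With the replicate block 4 members were called between SDHBKO and parental cells (HEXA lost, edgeR adjusted p = 0.112) and none in the other comparisons, and the calls over all genes were 199, 59 and 12. Depth limits the members under about 20 CPM and those of the 7 that were not tested. For ATP6V0C and MCOLN1 the overlap with counted genes on the same strand is a further limit.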
